A study of Mus musculus with 8 samples.

Results

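The 9 genes described here code for the enzymes that carry squalene to cholesterol. They are 9 of the 30789 gene symbols of the array. In pathway order they are *Sqle*, *Lss*, *Cyp51*, *Sc4mol* (now named *Msmo1*), *Nsdhl*, *Hsd17b7*, *Ebp*, *Sc5d* and *Dhcr7*. They were read by all probes that the deposited annotation assigns to these symbols, 16 of 45281 probes. Of the 16, 13 were above background on 4 or more arrays and entered the test, among 17122 tested probes in all. The labels give total RNA as the material, while the study's methods describe mRNA purified from it before hybridization. The cells were thioglycollate-elicited peritoneal macrophages of C57/BL6 mice aged 8 weeks. 4 samples were incubated for 24 h with acetylated LDL (Ac-LDL) at 120 μg/ml, and the 4 controls were mock treated. Ac-LDL is a chemically modified low-density lipoprotein that macrophages take up through scavenger receptors, and it loads the cells with cholesterol. Each group is labelled as biological replicates 1 to 4. The labels do not say that the replicates came from separate mice, so the p-values measure only the spread between these samples, which may be technical. All cells share the thioglycollate elicitation, an irritant that draws macrophages into the peritoneal cavity, and, per the study's methods, adherent culture in medium conditioned by L-929 fibroblasts. The comparison asks how the transcripts of the late sterol pathway stand in macrophages loaded with cholesterol.

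Cholesterol synthesis has an early part, which builds squalene from acetyl-CoA, and a late part, which closes squalene into the sterol ring system and trims it to cholesterol. The enzymes of both parts are known targets of SREBP-2, a membrane-bound transcription factor that is held in the endoplasmic reticulum when membrane cholesterol is high and is cut free when it is low. In foam cells, macrophages filled with lipoprotein cholesterol, the pathway is known to be repressed, and some of its sterol intermediates are known for effects of their own on macrophage genes.

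A probe was taken as detected where its deposited detection p-value did not exceed 0.05, which held for 36.8% to 38.5% of the probes on each array. The arrays lie on 2 slides, with replicates 1 and 2 of both groups on slide 1 and replicates 3 and 4 on slide 2. Arrays of the same slide resembled each other, so the changes of the 9 enzymes are also given within the slides. All 7 macrophage markers (*Emr1*, *Cd68*, *Csf1r*, *Itgam*, *Cd14*, *Fcgr1* and *Mertk*) were detected on all 8 arrays. All 4 fibroblast markers (*Col1a1*, *Col1a2*, *Col3a1* and *Dcn*) were detected on all 8 arrays too, with a summed signal of 10444 to 14342 on the control arrays and 10066 to 11653 on the Ac-LDL arrays. Of the mesothelial markers 2 of 3 were detected on 4 or more arrays, as were 1 of 3 B cell and 1 of 3 neutrophil markers, whereas no T cell, eosinophil or mast cell marker was. The part of these other cells in the results was not tested. In such bulk samples, fewer cells of a type and less RNA per cell cannot be told apart.

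The probes are 50 bases long, and those shown here lie in the coding part of their transcript. The comparison itself rests on the brightest tested probe of each gene, whether shown or not. No probe of another gene shared 20 or more consecutive bases with any of the 16, and the only gene annotated as similar to a member was *Ebpl*, a relative of *Ebp*. Both tested *Sqle* probes are shown as evidence from separate places of the transcript, at positions 2224 and 1081. In the *Cyp51* probe, capitals mark the codons that fit the cysteine signature of P450 enzymes, the stretch that holds the haem. In the *Nsdhl* pair, capitals mark the 44 bases that both probes share, so they are not separate measurements of the transcript. The *Ebp* probe is shown because it stands apart from the upstream steps in its response.
*Sqle*, brighter probe: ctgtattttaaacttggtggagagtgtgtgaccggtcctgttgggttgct
*Sqle*, dimmer probe: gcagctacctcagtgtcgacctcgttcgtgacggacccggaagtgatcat
*Cyp51*: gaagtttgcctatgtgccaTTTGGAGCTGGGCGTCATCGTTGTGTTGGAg
*Nsdhl*, brighter probe of the pair: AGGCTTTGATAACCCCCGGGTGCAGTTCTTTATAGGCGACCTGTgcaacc
*Nsdhl*, dimmer probe of the pair: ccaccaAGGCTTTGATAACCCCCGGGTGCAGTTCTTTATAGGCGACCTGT
*Ebp*: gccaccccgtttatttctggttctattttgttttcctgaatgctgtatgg
The deposited annotation places the *Sqle* probes at chr15:59161327-59161376 and chr15:59149393-59149442, the *Nsdhl* pair at chrX:70175067-70175116 and chrX:70175060-70175109 and the *Ebp* probe at chrX:7762840-7762889 of a build it does not name. The *Cyp51* probe lies across an exon junction, in 2 blocks at chr5:4083282-4083303 and chr5:4086460-4086487. It therefore reads spliced RNA.

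All 9 enzymes had a lower mean in macrophages incubated with Ac-LDL than in controls, each by its brightest tested probe. The first 6 enzymes, from *Sqle* to *Hsd17b7*, stood at 33.2% to 49.4% of the control level, and the last 3, *Ebp*, *Sc5d* and *Dhcr7*, at 71.1% to 84.9%, where the lower bound is that of the dim *Sc5d* probe. In 8 of the 9 enzymes, all but *Dhcr7*, the 4 Ac-LDL arrays lay entirely below the 4 control arrays, against 1.68% of all tested probes. The median difference over the 9 enzymes was -1.20 on the log2 scale, and over all tested probes it was 0.0012. Differences are given as Ac-LDL minus control on the log2 scale of the normalized intensity. Their standard error (SE) is that of the limma fit without a block, also beside calls made with a block.

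None of the 9 passed an adjusted p-value of 0.05 in limma without a block, where 0.035% of the tested probes were called lower. 8 of the 9 had an unadjusted p-value under 0.05 in that fit, against 2.47% of the tested probes, and the methods' unpaired test called none after adjustment. Same-numbered arrays deviated together, so the fit with the replicate number as a block is given beside each result. With the replicate block the first 6 enzymes fell, against 0.28% of the tested probes called lower. Without pair 3 or without pair 4, both of slide 2, that fit called 0 of the 9, and the same 6 remained lower. With the slide as a block 5 of these 6 were called, all but *Nsdhl*, against 0.234% of the tested probes. *Ebp*, *Sc5d* and *Dhcr7* passed in none of these 3 fits. The exact two-sided permutation test of each single enzyme, whose smallest possible value is 0.0286 with 4 arrays a group, reached 0.0286 for 8 of the 9. That value is reached only where the groups do not overlap, so it restates the non-overlap given above and is no further evidence. Of all 17122 tested probes, 288 lay entirely lower and 362 entirely higher on the Ac-LDL arrays. In the sentences below a gene is said to have fallen where it passed with the replicate block, and the adjusted p-values are those of limma over all tested probes.

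**Figure D1:**
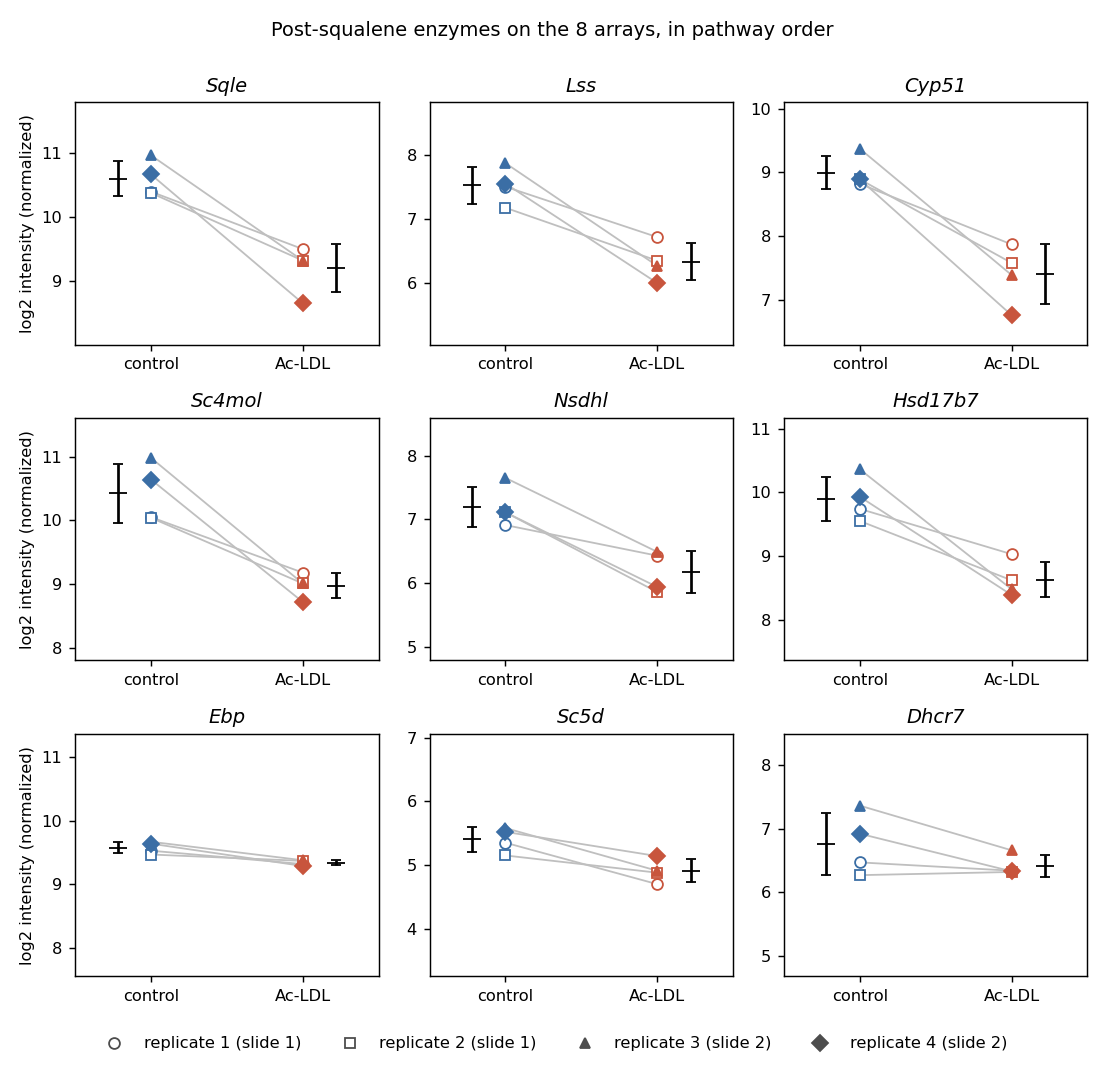
Normalized log2 intensity (vertical axis) of the 9 enzymes on the 4 control and 4 Ac-LDL arrays, by the brightest tested probe, with each axis spanning the same range. Grey lines join arrays of the same replicate number, open symbols are slide 1, filled symbols slide 2, and the bars beside the points are the mean and SD. The groups are apart in all panels but *Dhcr7*, and *Ebp* has the smallest difference of the means.

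*Sqle* codes for squalene epoxidase, which adds oxygen to squalene and is a rate-limiting step of the late pathway. Its log2 intensity on control arrays 1 to 4 was 10.40, 10.38, 10.97 and 10.67, and on Ac-LDL arrays 1 to 4 it was 9.50, 9.32, 9.32 and 8.65. The groups did not overlap, and Ac-LDL replicate 4 was the lowest array. *Sqle* fell by 1.41 (SE 0.20, n = 4 per group), with an adjusted p-value of 0.0528 without a block, 0.0189 under the replicate block and 0.0223 under the slide block in limma.

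*Lss* codes for lanosterol synthase, which folds the epoxide into lanosterol, the first sterol of the pathway. Its log2 intensity was 7.51, 7.18, 7.88 and 7.56 on the control arrays and 6.72, 6.35, 6.27 and 6.0 on the Ac-LDL arrays. *Lss* fell by 1.20 (SE 0.18), with limma adjusted p-values of 0.0595 without a block, 0.0201 under the replicate block and 0.0306 under the slide block. The groups were apart by 0.46, the gap between the lowest control and the highest Ac-LDL array. A further *Lss* probe, annotated at position 18 of a sequence from another source, was not detected on any array.

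*Cyp51* codes for lanosterol 14-alpha-demethylase, the P450 that takes off the first of the extra methyl groups of lanosterol. It was the second most lowered of all tested probes. Its log2 intensity was 8.82, 8.89, 9.37 and 8.89 on the control arrays and 7.87, 7.58, 7.39 and 6.76 on the Ac-LDL arrays. Control replicate 3 stood above the other controls, whereas the Ac-LDL arrays were spread over more than a log2 unit. *Cyp51* fell by 1.59 (SE 0.22), to 33.2% of control, with limma adjusted p-values of 0.0528 without a block, 0.0178 under the replicate block and 0.0216 under the slide block.

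*Sc4mol*, *Nsdhl* and *Hsd17b7* code for the C4-demethylation complex, an oxidase, a decarboxylating dehydrogenase and a ketoreductase that together take off the pair of methyl groups at carbon 4. The oxidase gene *Sc4mol* had log2 intensities of 10.05, 10.04, 10.98 and 10.64 on the control arrays and of 9.18, 9.01, 9.01 and 8.72 on the Ac-LDL arrays. Its controls divided by slide, with replicates 3 and 4 higher than replicates 1 and 2, and the Ac-LDL arrays lay close together. *Sc4mol* fell by 1.45 (SE 0.21), with limma adjusted p-values of 0.0577 without a block, 0.0209 under the replicate block and 0.0197 under the slide block.

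The dehydrogenase gene *Nsdhl* is X-linked and has 4 tested probes. By the brightest, the log2 intensity was 6.91, 7.11, 7.65 and 7.11 on the control arrays and 6.43, 5.86, 6.49 and 5.94 on the Ac-LDL arrays. The gap between the groups was 0.42. *Nsdhl* fell by 1.02 (SE 0.19), to 49.4% of control, with limma adjusted p-values of 0.169 without a block and 0.0204 with the replicate block. Under the slide block it stood at the threshold of 0.05 and did not pass.

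The ketoreductase gene *Hsd17b7* had log2 intensities of 9.74, 9.55, 10.36 and 9.93 on the control arrays and of 9.03, 8.62, 8.48 and 8.39 on the Ac-LDL arrays. It fell by 1.27 (SE 0.19), with limma adjusted p-values of 0.0595 without a block, 0.0263 under the replicate block and 0.0307 under the slide block. The 3 genes of the complex thus stood at 36.6%, 49.4% and 41.6% of their control level.

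*Ebp* codes for the sterol isomerase that shifts the ring double bond after the methyl groups are gone, and its product is also known as the emopamil binding protein. Its log2 intensity was 9.53, 9.47, 9.67 and 9.64 on the control arrays and 9.32, 9.37, 9.38 and 9.29 on the Ac-LDL arrays. The groups did not overlap but lay only 0.09 apart, and the Ac-LDL arrays had an SD of 0.04. The difference was -0.24 (SE 0.09, 95% interval -0.43 to -0.04), with limma adjusted p-values of 0.854 without a block, 0.264 under the replicate block and 0.260 under the slide block. The *Ebp* signal was a median of 17.2 times the median signal of undetected probes, so this small difference was not measured near background.

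*Sc5d* codes for lathosterol oxidase, which makes the substrate of *Dhcr7*. Its log2 intensity was 5.35, 5.15, 5.58 and 5.52 on the control arrays and 4.70, 4.88, 4.91 and 5.14 on the Ac-LDL arrays. The groups were apart by 0.01, and the probe was dim, detected on 7 of 8 arrays and only 1.47 times above undetected probes by its median signal. The difference was -0.49 (SE 0.13), with limma adjusted p-values of 0.539 without a block, 0.0804 under the replicate block and 0.0605 under the slide block. It was -0.30 without background correction and -0.25 with a normexp offset of 50.

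*Dhcr7* codes for the reductase that makes cholesterol from its last precursor, and its loss causes Smith-Lemli-Opitz syndrome. Its log2 intensity was 6.47, 6.27, 7.36 and 6.92 on the control arrays and 6.34, 6.32, 6.66 and 6.33 on the Ac-LDL arrays. The groups overlapped, with control replicate 2 below all Ac-LDL arrays. The difference was -0.34 (SE 0.21, 95% interval -0.82 to 0.13; exact permutation p = 0.257), with limma adjusted p-values of 0.961 without a block, 0.302 under the replicate block and 0.392 under the slide block. Without control replicate 3 it was -0.14.

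**Figure D2:**
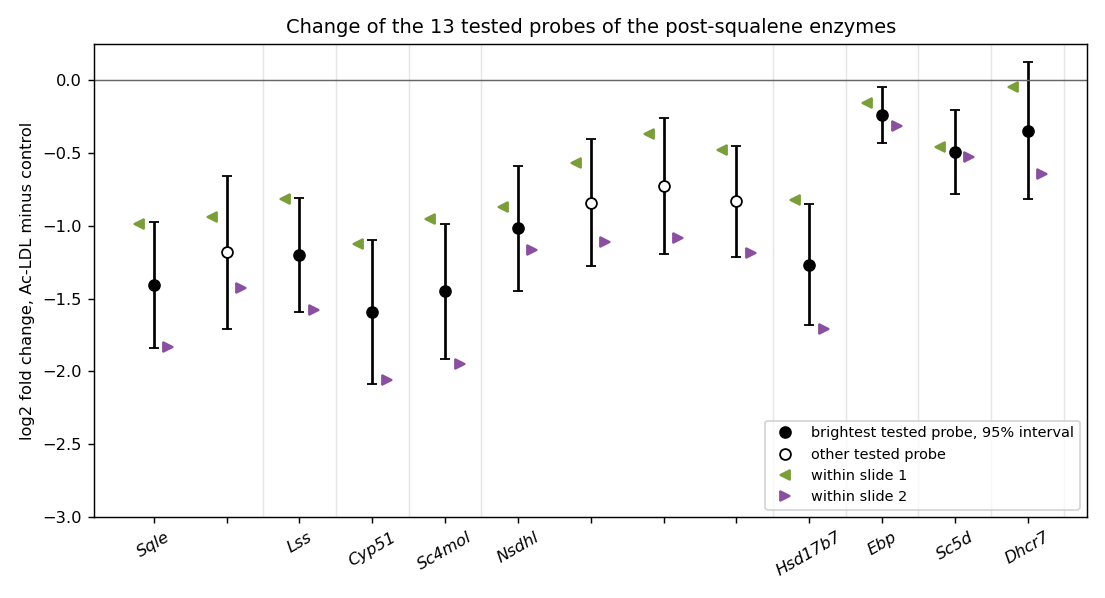
Log2 fold change (vertical axis, Ac-LDL minus control) of the 13 tested probes in pathway order. Circles are the limma estimates with 95% intervals, filled for the brightest tested probe of a gene, and triangles are the differences within slide 1 and within slide 2. All 13 circles lie below 0, and only the interval of *Dhcr7* reaches it.

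Whether neighbouring steps differed was read from the difference of each array between the probes of adjacent enzymes, for the 8 adjacent pairs. The SE of a step comes from the spread of these differences within the groups and not from limma. The largest step lay between *Hsd17b7* and *Ebp*, where the change was smaller by 1.03 (SE 0.19) for *Ebp*. The arrays of the 2 groups did not overlap in this difference, and the exact permutation p was 0.0286, or 0.114 after adjustment over the 8 pairs. The only other step without overlap was from *Lss* to *Cyp51*, where *Cyp51* was lowered by 0.39 more (SE 0.14; exact permutation p = 0.0286, adjusted 0.114). The remaining 6 steps overlapped, with differences from -0.26 between *Ebp* and *Sc5d* to 0.43 between *Sc4mol* and *Nsdhl* and exact permutation p-values of 0.0857 to 0.486. With 4 arrays a group no step could pass the adjusted threshold on its own. Without background correction the step from *Hsd17b7* to *Ebp* was 0.99 and that from *Lss* to *Cyp51* was -0.47. Other steps moved by over 1.5 times, from 0.21 to 0.38 between *Sqle* and *Lss*, from -0.25 to -0.40 between *Nsdhl* and *Hsd17b7*, from -0.26 to -0.07 between *Ebp* and *Sc5d* and from 0.15 to 0.02 between *Sc5d* and *Dhcr7*. The step from *Cyp51* to *Sc4mol* moved from 0.14 to 0.05. These tests do not use the pairing of the arrays. Within the same-numbered pairs, 5 of the 8 steps had the same sign in all 4 pairs. They were the 2 steps without overlap and those from *Sqle* to *Lss*, from *Cyp51* to *Sc4mol* and from *Ebp* to *Sc5d*, and the smallest single values of the last 3 were 0.04, 0.01 and -0.03.

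Probes of the same gene were compared next. The SE of a difference between 2 probes comes from its spread within the groups and not from limma. The 2 tested *Sqle* probes followed each other over the 8 arrays (r = 0.96), and their changes of -1.41 and -1.18 differed by 0.23 (SE 0.15; exact permutation p = 0.2). The dimmer *Sqle* probe also fell, with limma adjusted p-values of 0.208 without a block and 0.0185 with the replicate block, but with the slide block it was 0.0799. The other 3 *Nsdhl* probes had differences of -0.84, -0.83 and -0.73, each with non-overlapping groups, and none of the 3 passed in any of the 3 fits. Their limma adjusted p-values with the replicate block were 0.0783, 0.0724 and 0.0865. The overlapping pair, which shares 44 of 50 bases, had the highest correlation of the 6 *Nsdhl* probe pairs (r = 0.97), and the lowest was 0.84. The brightest *Nsdhl* probe was lowered by 0.29 more than the probe at transcript position 210 (SE 0.14, exact permutation p = 0.0286 before adjustment over the 7 probe pairs compared). So at the settings of the report the call of *Nsdhl* rests on 1 of its 4 probes, and its direction on all 4. With the replicate block and either no background correction or a normexp offset of 50, all 4 were called. A further probe each of *Sqle*, *Lss* and *Hsd17b7* was not detected on any array, and these 3 have no coordinates in the deposited annotation.

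The change was larger on slide 2 than on slide 1 for all 9 enzymes. The median over the 9 was -0.82 within slide 1 and -1.58 within slide 2, with 2 arrays a group in each. The differences within slide 1 and within slide 2 were -0.98 and -1.83 for *Sqle*, -0.82 and -1.58 for *Lss* and -1.13 and -2.06 for *Cyp51*. For the C4-demethylation complex they were -0.95 and -1.95 for *Sc4mol*, -0.87 and -1.17 for *Nsdhl* and -0.82 and -1.71 for *Hsd17b7*. For the last 3 enzymes they were -0.16 and -0.32 for *Ebp*, -0.46 and -0.52 for *Sc5d* and -0.04 and -0.65 for *Dhcr7*, so within slide 1 *Dhcr7* and not *Ebp* had the smallest difference. Within pairs of the same replicate number, the median was -0.71, -0.93, -1.60 and -1.54 for pairs 1 to 4. All 9 enzymes were lower in pairs 1, 3 and 4 and 8 of 9 in pair 2, where *Dhcr7* was higher by 0.04. The difference between the slides was tested in limma over all probes and no probe was called, while 8.38% had an unadjusted p-value under 0.05. Of the 9 enzymes 6 did so, with the largest difference for *Sc4mol* at -0.997 (SE 0.21, adjusted p = 0.442). The adjusted p-values of all 9 lay between 0.442 and 0.943. Control replicate 3 was the highest control for all 9 enzymes, control replicate 2 the lowest for 7, and Ac-LDL replicate 4 the lowest Ac-LDL array for 6. The macrophage markers also stood apart by slide. *Emr1*, *Csf1r* and *Itgam*, 3 of the 7, were higher on all 4 arrays of slide 2 than on all 4 of slide 1, as were 10.7% of all tested probes, and the median over the 7 was 0.58 higher on slide 2. The summed signal of the 7, before normalization, was 10276 to 12609 on slide 1 and 14544 to 16366 on slide 2. *Cd68* alone gave 7320 to 9806 of it. On both slides this sum was higher on the control arrays than on the Ac-LDL arrays. After normalization, the brightest probes differed by 0.20 for *Emr1*, 0.02 for *Cd68*, 0.35 for *Itgam*, 0.61 for *Fcgr1* and 0.56 for *Mertk*. *Csf1r* and *Cd14* differed by -0.02 and -0.48. *Mertk* was called higher with the replicate block (limma adjusted p = 0.0364), but not without a block or with the slide block. None of the 4 fibroblast markers was higher throughout on slide 2, and *Col1a1* was lower throughout. The part of these markers in the slide difference of the enzymes was not tested.

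**Figure D3:**
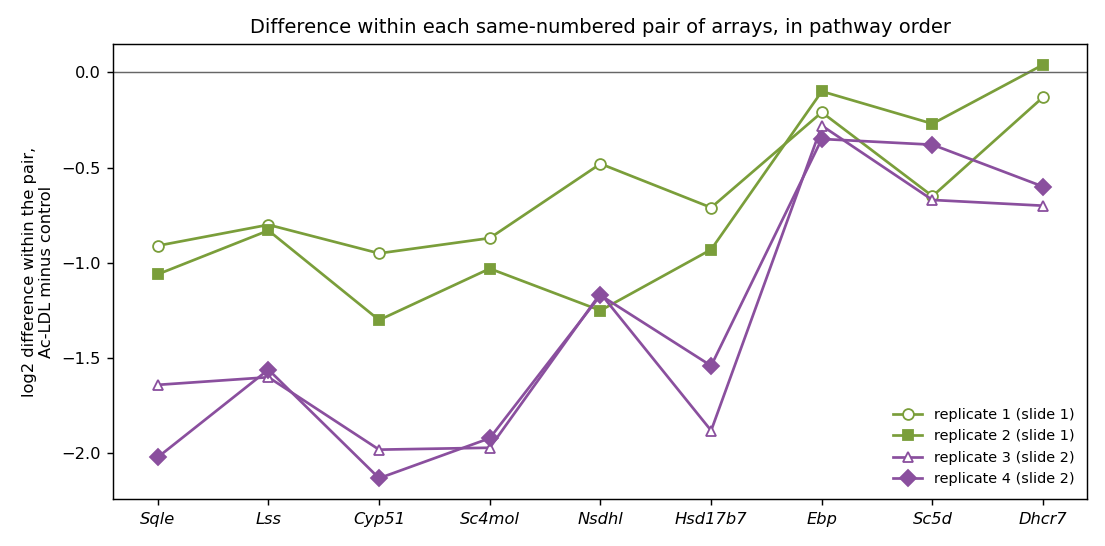
Log2 difference (vertical axis) between the Ac-LDL and the control array of the same replicate number, for the 9 enzymes in pathway order. Lines join the values of a pair for reading only. The slide 2 pairs lie below the slide 1 pairs for all enzymes but *Nsdhl* and *Sc5d*, and all 4 lines rise between *Hsd17b7* and *Ebp*.

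The variation from array to array within the groups was then compared between the enzymes. Among the 36 pairs of enzymes, the correlation of the deviations from the group mean had a median of 0.65 and ran from -0.38 to 0.96, with 33 pairs above 0. Within group and slide the median was 0.71, with 29 pairs above 0. The other 7 pairs all involved *Sc5d*, whose correlations with the other 8 enzymes ran from -0.67 to 0.06 there. Each group has only 2 arrays on a slide, whose deviations there are mirror images. The correlations within group and slide therefore rest on few independent values. All these correlations describe 8 arrays that share slides and normalization, and those of pairs of other probes are not given here.

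The other genes of the pathway were counted by the same fits. Of 3 further late genes, all were lower and none passed in any of the 3 fits by its brightest probe. *Tm7sf2* and *Lbr*, which code for the 2 sterol C14 reductases, had differences of -0.56 (SE 0.14) and -0.26 (SE 0.16). *Erg28*, a scaffold of the C4-demethylation complex, had a difference of -0.36 (SE 0.10). *Cyp51*, *Sqle*, *Sc4mol* and *Hsd17b7* were chosen for display by the study from these same arrays, so their direction here is not independent evidence.

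Of 9 pre-squalene enzymes, 7 had a probe under the symbols used here and 6 were tested. All 6 were lower with groups that did not overlap, with a median of -0.94, and 3 passed in each of the 3 fits. These 3 were *Fdps*, which makes farnesyl diphosphate, *Acat2*, the thiolase that starts the pathway, and *Mvd*, the mevalonate diphosphate decarboxylase. *Fdps* fell by 1.69 (SE 0.19, limma adjusted p = 0.028) and was the most lowered of all tested probes. *Acat2* fell by 1.33 (SE 0.17, adjusted p = 0.0385), and *Mvd* fell by 1.15 (SE 0.14, adjusted p = 0.0342). The changes of the first 6 late enzymes, -1.02 to -1.59, thus lay within the range of the pre-squalene enzymes, -0.45 to -1.69.

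Of 5 regulators, 4 were lower, and 2 passed with either block but not without by their brightest probes. *Insig1*, an SREBP retention protein that is itself an SREBP target, fell by 1.45 (SE 0.21), and *Srebf2*, which codes for SREBP-2, fell by 0.88 (SE 0.15). Their limma adjusted p-values were 0.0189 and 0.0204 with the replicate block. A dimmer *Insig1* probe, at -1.59, passed without a block too (adjusted p = 0.0269).

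The oxidases of the late pathway draw electrons from *Por*, the P450 reductase, and from cytochrome b5 and its reductase. Of the 6 tested genes of these donors and partners none was called in any fit, and their median difference was -0.08. Of the 6, 5 were lower and 1 was higher, and 1 had an unadjusted p-value under 0.05. That gene was *Cyb5b*, which codes for a membrane form of cytochrome b5, with a difference of -0.32 (SE 0.13) that was lower in 4 of 4 pairs and did not pass under either block (limma adjusted p = 0.196 and 0.212). *Por* had a difference of 0.16 (SE 0.18). Of 6 relatives of the enzymes that act outside sterol synthesis none was called, with a median of 0.01. Among them *Hsd17b4*, *Hsd17b10*, *Hsd17b11* and *Hsd17b12* share the family name of *Hsd17b7* and ran from -0.18 to 0.17, and *Ebpl* had a difference of 0.10 (SE 0.14).

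**Figure D4:**
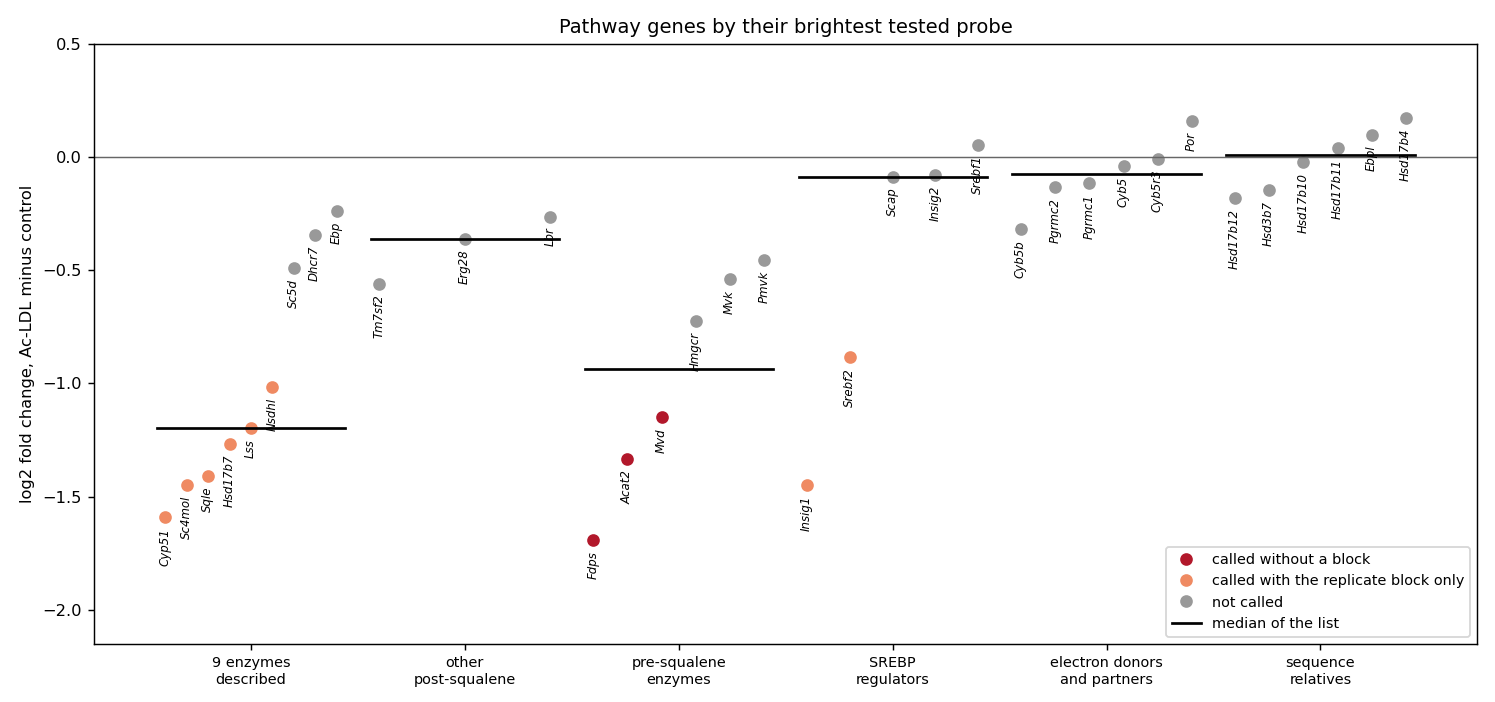
Log2 fold change (vertical axis, Ac-LDL minus control) of each pathway gene by its brightest tested probe, grouped by role. Colours give the limma call without a block and with the replicate block, and black bars are the medians. The medians of the 9 enzymes and of the pre-squalene enzymes are -1.20 and -0.94, and those of the electron donors and of the relatives are -0.08 and 0.01.

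The genes whose log2 values over the 8 arrays were most like the mean of the 9 enzymes were found among 17109 tested probes of other genes. Among the closest 5 were *Stard4* (r = 0.993, log2 difference -1.39), which codes for a sterol carrier, *Fads1* (r = 0.991, -0.34), a fatty acid desaturase, *Fdps* (r = 0.986, -1.69) and *Atg9b* (r = 0.985, -1.34), an autophagy gene. Such a correlation describes 8 arrays and includes the difference between the groups.

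The promoters of the enzymes were read because the genes moved together. RefSeq promoter windows on GRCm38.p6, from 250 bases before to 50 after a start, were held for 8 of the 9 genes, and *Dhcr7* has 3 windows. The letters CCAAT, the box bound by NF-Y, were searched on both strands, and so were GGGCGG, the box bound by Sp1, TCACNCCAC, a sterol regulatory element, and its core CACNCCA, which lies within it. CCAAT was found in all 8 genes and in 8 of their 10 windows, against 37.4% of all windows and 41.0% of all genes. GGGCGG was found in all 8 genes and 9 of 10 windows, against 35.9% of windows and 38.5% of genes. TCACNCCAC was found in none, against 1.24% of windows, and CACNCCA in *Sc4mol* only, against 18.4% of windows. A match is a description of the letters and not a bound site. *Ebp*, which was called neither without a block nor under the replicate or the slide block, holds both boxes as well, with CCAAT at positions -170 and -55, counted from -1 for the last base before the start. The 200 bases before the start are shown for the genes with a window that were called under the replicate block and for *Ebp*, with CCAAT and its reverse complement ATTGG in capitals.
*Lss*, chr10:76531405-76531604, plus strand: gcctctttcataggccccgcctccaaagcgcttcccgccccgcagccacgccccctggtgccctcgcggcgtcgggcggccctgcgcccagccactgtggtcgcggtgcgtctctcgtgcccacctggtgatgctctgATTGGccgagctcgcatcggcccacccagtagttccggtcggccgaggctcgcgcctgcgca
*Cyp51*, chr5:4104698-4104897, minus strand: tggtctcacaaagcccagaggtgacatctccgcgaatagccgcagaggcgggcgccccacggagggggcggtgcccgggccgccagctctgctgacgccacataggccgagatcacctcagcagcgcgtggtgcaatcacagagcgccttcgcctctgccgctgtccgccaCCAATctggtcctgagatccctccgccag
*Sc4mol*, chr8:64733579-64733778, minus strand: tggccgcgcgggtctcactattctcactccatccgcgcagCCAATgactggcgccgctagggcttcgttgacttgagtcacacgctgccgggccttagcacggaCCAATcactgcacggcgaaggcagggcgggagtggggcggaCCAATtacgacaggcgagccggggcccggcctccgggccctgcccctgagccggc
*Nsdhl*, chrX:72918321-72918520, plus strand: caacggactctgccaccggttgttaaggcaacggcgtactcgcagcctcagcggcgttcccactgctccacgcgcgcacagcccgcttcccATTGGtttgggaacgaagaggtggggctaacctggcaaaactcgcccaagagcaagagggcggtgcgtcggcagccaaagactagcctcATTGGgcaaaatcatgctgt
*Hsd17b7*, chr1:169969206-169969405, minus strand: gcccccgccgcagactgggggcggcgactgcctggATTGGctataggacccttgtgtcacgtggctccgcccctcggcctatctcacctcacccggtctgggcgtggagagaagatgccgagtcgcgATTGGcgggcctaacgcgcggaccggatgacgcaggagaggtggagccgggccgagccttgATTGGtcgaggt
*Ebp*, chrX:8193513-8193712, minus strand: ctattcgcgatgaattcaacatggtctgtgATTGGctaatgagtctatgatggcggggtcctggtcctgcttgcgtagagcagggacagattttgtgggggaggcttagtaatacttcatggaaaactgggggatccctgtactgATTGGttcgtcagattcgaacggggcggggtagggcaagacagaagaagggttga
The box begins at position -62 in *Lss* and at -29 in *Cyp51*. It begins at -160, -96 and -55 in *Sc4mol*, at -109 and -20 in *Nsdhl* and at -165, -73 and -12 in *Hsd17b7*. Past the bases shown, the *Nsdhl* window holds the box after the start too, at positions 8 and 34 on the same count. These distances had no common value in the 5 genes that fell.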

How the data were processed

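The authors deposited, for 45281 probes of an Illumina mouse bead chip and each array, the mean bead intensity, not background-corrected or normalized, a detection p-value against negative controls, the bead standard error and the number of beads. The submitters' processing notes name BeadStudio, and the study's methods name GeneSpring for normalization, whose output was not analysed here. No genome build is given in the deposited annotation. The intensity was background-corrected (normexp from the detection p-values, offset 16), quantile normalized and put on the log2 scale (neqc) with limma 3.58.1 in R 4.3.3. The test took the 17122 probes (12423 symbols) that passed a detection p-value limit of 0.05 on 4 or more of the 8 arrays. The groups were compared without a block, as the study's test was unpaired, with Benjamini-Hochberg adjustment over all tested probes. A gene was given by its tested probe with the highest mean. Exact permutation tests used all 70 assignments of the arrays. The fit was tested on simulated data, whose outcome is not given here, so no result rests on it. The enzymes, lists and tests were chosen with earlier results of these data known.

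Deviations from the group mean of same-numbered control and Ac-LDL arrays correlated across probes at 0.579, 0.479, 0.468 and 0.629 for replicates 1 to 4. Within a slide, arrays of different numbers correlated at 0.188 to 0.447, and between slides no correlation exceeded -0.318. The pairing comes from this check of the data, and much of it goes with the slide.

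All 9 enzymes and all their probes were named, as were the list genes called in any of the 3 fits and *Tm7sf2* and *Lbr*, and those among the 5 genes most like the enzymes' mean. Some genes under this rule are not reported here. *Erg28*, *Por*, *Cyb5b* and the relatives were named outside this rule, after their values were seen. Precision is limited by the number of arrays, 4 per group. The alternatives were the background correction, the normalization, the filter on dim probes, the spread model, the study's t-test, the blocks, single slides, the mean over probes and leaving out arrays.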

Additional observations from a re-analysis of the deposited data

Results flagged for a closer look

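In 2 of the 26 groups of 4 arrays examined (13 tested probes in both groups), a single array stood apart from the other 3 by Dixon's criterion, where chance gives about 1.3. On *Cyp51*, control replicate 3 had a log2 intensity of 9.37, and the other controls lay between 8.82 and 8.89. That value was read from 55 beads, and without this array the difference was -1.46. On *Dhcr7*, Ac-LDL replicate 3 had a log2 intensity of 6.66, and the other Ac-LDL arrays lay between 6.32 and 6.34. That value was read from 36 beads, and without this array the difference was -0.43. Control replicate 3 was the highest control for all 9 enzymes.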

How the results depend on the processing

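All 9 enzymes kept their lower direction under all 31 alternatives in which they could be computed (278 values). 7 of these alternatives were chosen after seeing the data. *Sc5d* drops out when detection on all 8 arrays is required. Without a block no enzyme was called at the settings of the report, and the calls depended on the settings that follow; the cause was not tested. With no other change, 6 enzymes (7 probes) were called with the replicate block, 5 (5 probes) with the slide block, 5 (5) without background correction, 5 (5) with median centring of the arrays, 5 (5) with limma's trend and robust prior and 3 (3) within slide 2. Of all 17122 tested probes, in either direction, 14 were called without background correction and 26 with median centring. With the trend and robust prior 16 were called, and within slide 2 also 16. No enzyme was called within slide 1, with no filter, with the offset of 50 or by the study's t-test after adjustment over all tested probes. The study names no such adjustment for its t-test. Before adjustment, 8 enzymes passed that t-test at the same limit. Within slide 1, 14 of all tested probes were called. Median centring moved the median of all probes to -0.09. The replicate block gave 6 enzymes (10 probes) with no background correction, 6 (10) with the offset of 50 and 8 (12) with median centring, where limma's prior had infinite degrees of freedom, so that p-values are then too small for probes of high spread. For these fits, and those below with pairs left out, the share of all tested probes called is not given here. Their counts are therefore not set against it. Leaving out arrays without a block gave 0 to 3 called enzymes and 0 to 3 probes, the 3 being *Lss*, *Sc4mol* and *Hsd17b7* without control replicate 2. In that fit 15 of all tested probes were called in either direction. With the replicate block, leaving out pair 1 or pair 2 gave 6 enzymes (8 probes), and leaving out pair 3 or pair 4 gave 0 enzymes (0 probes). The median over the 9 was -0.82 within slide 1 and -1.58 within slide 2, and -1.33 to -1.06 with arrays left out. Among the brightest tested probe of each gene, the dimmest were those of *Sc5d* and *Dhcr7*, with median signals of 1.47 and 2.81 times that of undetected probes, and next came *Nsdhl* and *Lss* at 3.39 and 3.53. The part of this in their changes was not tested.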
